A study of Mus musculus with 9 samples.

Results

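The genes described here are 8 transcripts used as markers of fetal-type or early tumour change in liver: Afp, H19, Igf2, Gpc3, Golm1, Akr1c18, Scd2 and Sprr1a. They were taken by symbol from the annotation of the array's probe sets, and the probe set of each gene was selected on its mean signal over all 9 arrays, the brightest being kept. Of the 8 symbols, 7 had a probe set of their own, 1 each, among 19938 genes with such a probe set. H19 had none and was not analysed here, apart from a shared probe set described with Igf2. The symbols were listed with results of these arrays already known, so their differences between genotypes describe these livers and their counts lend no support to the choice of genes.

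RNA from whole liver was hybridised to Affymetrix arrays with 3 mice per genotype. The first group, labelled NEMOΔhepa_p21_KO, combined loss of NEMO in hepatocytes with loss of p21 in every cell of the body, and was bred from NEMOΔhepa mice and constitutive p21-/- mice. The NEMOΔhepa group lacked NEMO in hepatocytes and kept p21. The WT group was wild type. All were male, 8 to 9 weeks old and fed chow, and the background was labelled C57/BL6 in each group. NEMO, the product of Ikbkg, is the regulatory subunit of the kinase that activates NF-κB, and p21, the product of Cdkn1a, is an inhibitor of cyclin-dependent kinases. Other liver cells keep NEMO in both knockouts, the promoter behind the hepatocyte deletion is not given in the sources used here, and p21 loss alone was not analysed here. In whole tissue, fewer cells of a type and less RNA per cell cannot be told apart.

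The genes come from several biological roles. Afp encodes alpha-fetoprotein, the main serum protein made by fetal liver, which is shut down after birth and made again in hepatoblast-like tumours. Igf2, a fetal growth factor, and H19, a noncoding RNA, are imprinted neighbours on chromosome 7 and are expressed from opposite parental copies. Gpc3 on the X chromosome encodes a cell-surface heparan sulfate proteoglycan, and Golm1 encodes a Golgi membrane protein that is shed into serum. Akr1c18 encodes a hydroxysteroid dehydrogenase that inactivates progesterone. Scd2 is the stearoyl-CoA desaturase of the neonatal liver and brain in mice, whereas Scd1 is the main adult liver form. Sprr1a belongs to a family of short proline-rich proteins that stiffen squamous epithelia, and it is also made by injured cells outside the skin.

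Golm1, Akr1c18 and Sprr1a are among the genes that rose most in the results that follow, so windows of 300 bases that hold their annotated starts are printed (RefSeq, GRCm38.p6). Capitals mark matches, on either strand, to the AP-1 motif TGANTCA, the palindromic HNF1 consensus or the TATA box TATAAA. The 3 motifs were matched separately, and no 2 matches overlapped in these windows. The windows are chr3:92485832-92486131 on the minus strand for Sprr1a, chr13:4150597-4150896 on the minus strand for Akr1c18 and chr13:59675735-59676034 on the minus strand for Golm1.
Sprr1a: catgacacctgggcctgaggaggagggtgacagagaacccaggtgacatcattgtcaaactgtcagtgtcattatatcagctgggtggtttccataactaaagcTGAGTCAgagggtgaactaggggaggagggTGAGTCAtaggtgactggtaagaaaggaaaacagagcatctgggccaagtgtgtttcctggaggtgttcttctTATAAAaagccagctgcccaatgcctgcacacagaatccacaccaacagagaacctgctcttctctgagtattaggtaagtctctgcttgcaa
Akr1c18: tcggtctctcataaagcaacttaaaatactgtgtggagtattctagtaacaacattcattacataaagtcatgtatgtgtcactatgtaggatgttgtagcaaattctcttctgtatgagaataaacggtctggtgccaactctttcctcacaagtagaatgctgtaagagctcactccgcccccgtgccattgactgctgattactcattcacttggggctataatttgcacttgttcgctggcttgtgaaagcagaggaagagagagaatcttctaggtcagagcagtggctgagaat
Golm1: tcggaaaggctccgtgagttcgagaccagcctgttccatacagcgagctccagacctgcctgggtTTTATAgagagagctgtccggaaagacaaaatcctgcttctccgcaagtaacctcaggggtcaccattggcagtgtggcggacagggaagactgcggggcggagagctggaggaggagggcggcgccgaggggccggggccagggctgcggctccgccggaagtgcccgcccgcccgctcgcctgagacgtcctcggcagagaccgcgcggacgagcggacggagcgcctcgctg
The Sprr1a window held 2 AP-1 matches, both TGAGTCA, at 146 and 116 bases before the start, and a TATA match at 43 bases before it. AP-1 matches were present in 7.81% of all 32851 windows in the RefSeq table, and TATA matches in 13.6%. The Golm1 window had a TATA match on the other strand at 185 bases before the start and 67.0% G and C. The Akr1c18 window held none of the 3 motifs and had 42.3% G and C. Afp, whose window is not printed, had a TATA match at 7 bases before its annotated start and no exact HNF1 match. An exact HNF1 match was rare everywhere, at 0.00913% of windows. A match describes letters in the window and is not evidence of binding.

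Checks on the labels and arrays come first. Ikbkg signal, on the log2 scale of all array values here, was 8.10, 8.26 and 8.45 in NEMOΔhepa_p21_KO livers, 8.23, 8.48 and 8.35 in NEMOΔhepa livers and 8.73, 8.89 and 8.98 in WT livers. It was lower by limma against WT in both knockouts, with adjusted p = 0.00835 for NEMOΔhepa_p21_KO and 0.0184 for NEMOΔhepa. The NEMOΔhepa call ended without NEMOΔhepa replicate 1 or 3 or WT replicate 2 or 3 (adjusted p = 0.0524, 0.0647, 0.0625 and 0.0729). The probe set shared by Cdkn1a and 4930567H12Rik read 11.14, 10.14 and 11.06 in NEMOΔhepa_p21_KO livers, 9.76, 10.70 and 9.83 in NEMOΔhepa livers and 8.54, 9.64 and 7.83 in WT livers. It was called higher by limma against WT in NEMOΔhepa_p21_KO, by 2.11 ± 0.45 (adjusted p = 0.0194). That call was lost in 5 of 18 alternative settings. In NEMOΔhepa it had 1.43 ± 0.45 against WT (adjusted p = 0.101), passing in 2 of 18. It was therefore not reduced but higher in the labelled p21 knockout. Where its probes lie relative to the deleted part was not analysed here, so it does not check the label. Every direction given for NEMOΔhepa_p21_KO rests on that label. Array medians ran from 6.47 to 6.58. In a fit with array weights, NEMOΔhepa replicate 1 had the lowest weight, 0.412 against 0.78 to 1.63 for the other 8 arrays.

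Golm1, Akr1c18, Scd2 and Sprr1a rose against WT in both knockouts. These are the Golgi, steroid, lipid and epithelial genes of the group, and on each of the 4 probe sets the lowest knockout array lay above the highest WT array. The classical fetal genes Afp, Igf2 and Gpc3 did not pass the test in either comparison. The means of Afp and Gpc3 lay below every array median in each genotype, so a small change in them could go unseen. Missing the threshold therefore does not show that these genes were unchanged. In NEMOΔhepa against WT, 4 of the 7 measured genes were called higher at an adjusted p under 0.05 and none lower, where 5.66% of all 28939 probe sets were called higher and 2.02% lower, 7.68% in all. In NEMOΔhepa_p21_KO against WT the same 4 of 7 were called higher and none lower, where 5.81% of probe sets were called higher and 3.51% lower, 9.32% in all. At an unadjusted p under 0.05, 5 of the 7 passed in NEMOΔhepa, beside 20.3% of all probe sets, and 6 of 7 in NEMOΔhepa_p21_KO, beside 21.0%. The median difference over the 7 genes was 1.66 in NEMOΔhepa against WT and 1.77 in NEMOΔhepa_p21_KO against WT, beside medians of -0.04 and -0.03 over all probe sets. The 2 comparisons share the WT arrays. Since the genes were listed from these arrays, nothing is read from the counts.

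**Figure D1:**
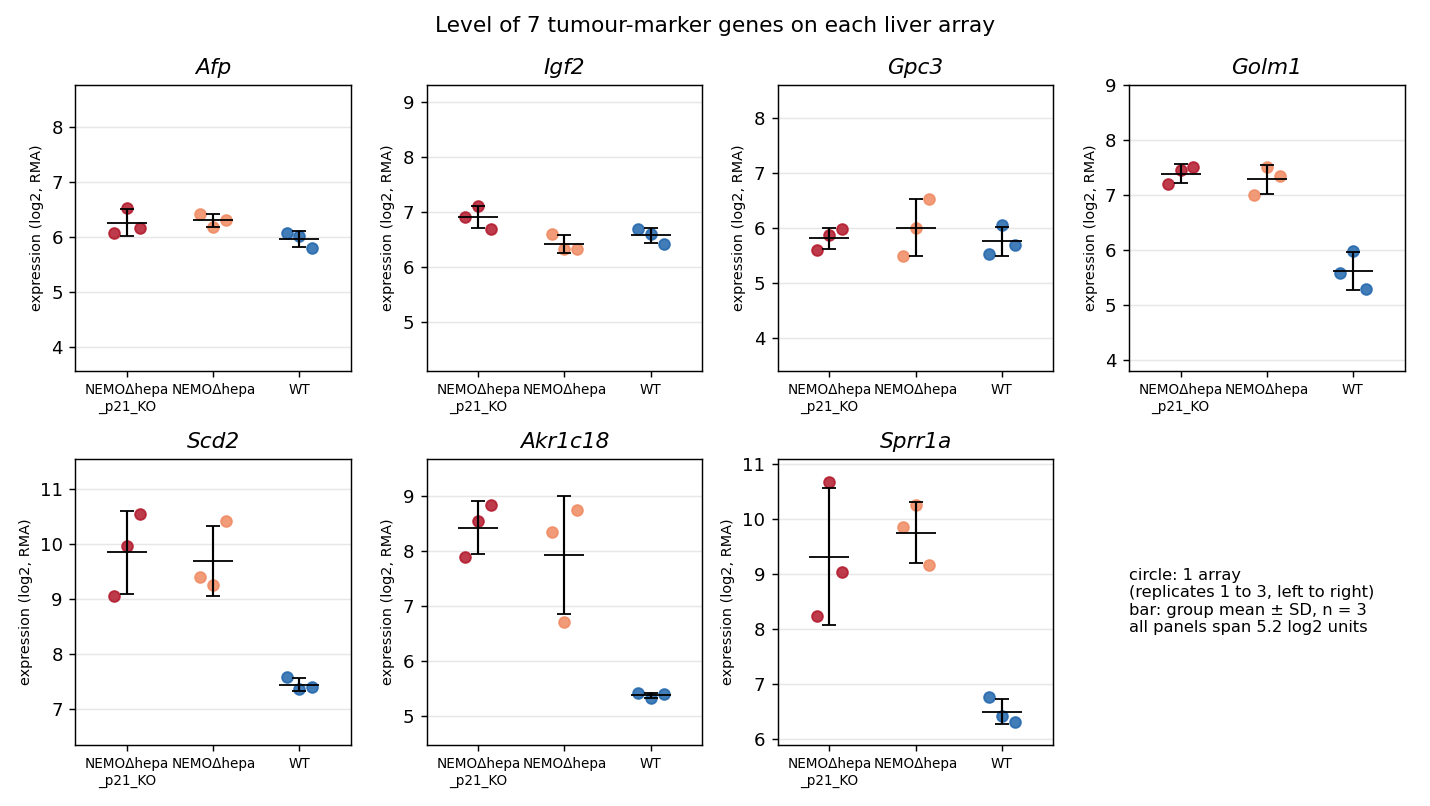
Log2 signal of the 7 measured genes (vertical axes, 1 panel a gene) in each of the 9 arrays, by genotype, with a circle for each mouse and a black bar for the group mean with its SD (n = 3). Golm1, Akr1c18, Scd2 and Sprr1a lie higher in all 6 knockout arrays than in any WT array, while Igf2 and Gpc3 overlap WT in each knockout and Afp overlaps it in NEMOΔhepa_p21_KO.

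Sprr1a read 8.24, 10.68 and 9.04 in NEMOΔhepa_p21_KO livers, 9.85, 10.25 and 9.16 in NEMOΔhepa livers and 6.76, 6.42 and 6.31 in WT livers. The 3 NEMOΔhepa arrays were all high, and the NEMOΔhepa_p21_KO arrays were the most scattered, with replicate 2 far above the other two. The difference from WT was 3.26 ± 0.53 (SE, n = 3 per group) in NEMOΔhepa, a 9.57-fold higher signal with adjusted p = 0.00544. In NEMOΔhepa_p21_KO it was 2.82 ± 0.53, a 7.08-fold higher signal with adjusted p = 0.00951. Ranked by the size of an upward difference among all probe sets, Sprr1a stood at place 5 in NEMOΔhepa and place 18 in NEMOΔhepa_p21_KO.

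Akr1c18 read 7.89, 8.54 and 8.83 in NEMOΔhepa_p21_KO livers, 8.34, 6.72 and 8.74 in NEMOΔhepa livers and 5.41, 5.33 and 5.40 in WT livers. The WT arrays were nearly identical, with an SD of 0.046, whereas the SD was 0.48 in NEMOΔhepa_p21_KO and 1.07 in NEMOΔhepa, where replicate 2 was low. The WT mean of 5.38 lay well below every array median (6.47 to 6.58). How far it stood above background was not tested, so the folds rest on a dim WT level. Against WT the difference was 2.56 ± 0.45 in NEMOΔhepa (5.88-fold, adjusted p = 0.00805, place 8 among upward differences). It was 3.04 ± 0.45 in NEMOΔhepa_p21_KO (8.23-fold, adjusted p = 0.00295, place 14).

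Scd2 read 9.05, 9.97 and 10.55 in NEMOΔhepa_p21_KO livers, 9.41, 9.25 and 10.42 in NEMOΔhepa livers and 7.59, 7.36 and 7.40 in WT livers. Replicate 3 was the highest array of both knockouts. Relative to WT the difference was 2.24 ± 0.38 in NEMOΔhepa (4.74-fold, adjusted p = 0.00679, place 23) and 2.41 ± 0.38 in NEMOΔhepa_p21_KO (5.31-fold, adjusted p = 0.0042, place 39).

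Golm1 read 7.19, 7.46 and 7.51 in NEMOΔhepa_p21_KO livers, 7.003, 7.51 and 7.34 in NEMOΔhepa livers and 5.59, 5.98 and 5.29 in WT livers. It had the smallest rise of the 4 genes and the lowest adjusted p. Its WT mean of 5.62 also lay below every array median, so its folds too rest on a dim WT level. Set against WT, the difference was 1.66 ± 0.18 in NEMOΔhepa (3.17-fold, adjusted p = 0.000893, place 85) and 1.77 ± 0.18 in NEMOΔhepa_p21_KO (3.40-fold, adjusted p = 0.000547, place 108).

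**Figure D2:**
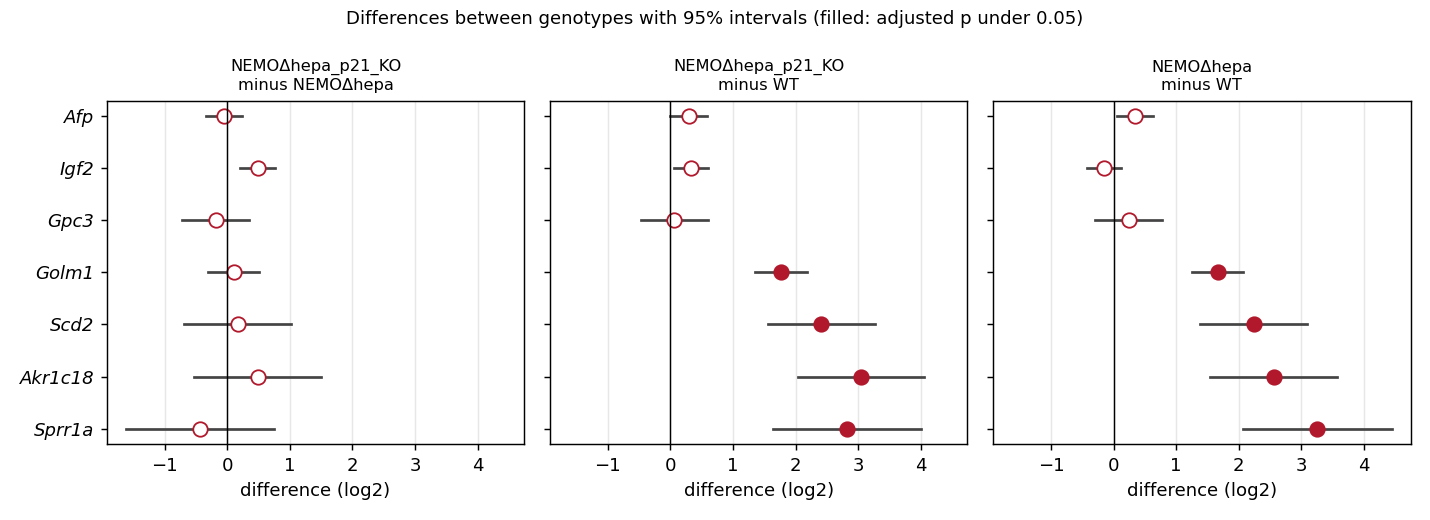
Difference in log2 signal of each measured gene in the 3 comparisons, with a circle for the estimate, filled where the adjusted p was under 0.05, and a line for its 95% confidence interval from limma. The intervals of Golm1, Akr1c18, Scd2 and Sprr1a lie above 0 against WT in both knockouts and span 0 between the knockouts.

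Afp read 6.08, 6.54 and 6.17 in NEMOΔhepa_p21_KO livers, 6.43, 6.19 and 6.31 in NEMOΔhepa livers and 6.08, 6.03 and 5.80 in WT livers. The 3 NEMOΔhepa values all lay above the 3 WT values, and the NEMOΔhepa_p21_KO values overlapped them. The difference from WT was 0.34 ± 0.13 in NEMOΔhepa, with a 95% interval of 0.05 to 0.63, an unadjusted p of 0.0266 and adjusted p = 0.172 by limma. In NEMOΔhepa_p21_KO it was 0.29 ± 0.13 with adjusted p = 0.237. Afp was dim, with a mean below every array median in each genotype. Including Afp, 5 of the 7 genes lay wholly above WT in NEMOΔhepa, where 11.4% of all probe sets did, and 4 of 7 in NEMOΔhepa_p21_KO, where 11.6% did.

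Igf2 read 6.91, 7.10 and 6.70 in NEMOΔhepa_p21_KO livers, 6.60, 6.32 and 6.33 in NEMOΔhepa livers and 6.70, 6.60 and 6.42 in WT livers. The NEMOΔhepa_p21_KO values lay wholly above the NEMOΔhepa values and touched the WT range, with the same value to 3 decimals in NEMOΔhepa_p21_KO replicate 3 and WT replicate 1, and again in NEMOΔhepa replicate 1 and WT replicate 2. The difference from WT was -0.16 ± 0.12 in NEMOΔhepa (adjusted p = 0.537) and 0.33 ± 0.12 in NEMOΔhepa_p21_KO (adjusted p = 0.15).

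H19 lies beside Igf2, and the microRNA precursor Mir675 lies inside H19. A probe set annotated to both Mir675 and Supt6, a transcription elongation gene elsewhere in the genome, is the nearest to a reading of this locus, and it was chosen after its values were seen. Its mature microRNAs are printed with the seed, bases 2 to 8, in capitals (RefSeq, GRCm38.p6, minus strand). The 5p arm lies at chr7:142577112-142577133 and the 3p arm at chr7:142577078-142577099, and the arms do not share a seed.
mmu-miR-675-5p: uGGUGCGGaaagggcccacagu
mmu-miR-675-3p: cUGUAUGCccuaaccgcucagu
The shared probe set read 6.23, 7.54 and 6.52 in NEMOΔhepa_p21_KO livers, 6.58, 5.85 and 6.03 in NEMOΔhepa livers and 6.23, 6.05 and 6.03 in WT livers. The highest value was that of NEMOΔhepa_p21_KO replicate 2. Neither knockout passed the test against WT, with 0.05 ± 0.31 in NEMOΔhepa (adjusted p = 0.953) and 0.66 ± 0.31 in NEMOΔhepa_p21_KO (adjusted p = 0.261). The NEMOΔhepa difference turned to -0.01 with arrays centred, to -0.09 with array weights and to -0.17 without NEMOΔhepa replicate 1. Its signal cannot be assigned to H19, Mir675 or Supt6.

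Gpc3 read 5.599, 5.86 and 5.97 in NEMOΔhepa_p21_KO livers, 5.48, 5.995 and 6.52 in NEMOΔhepa livers and 5.52, 6.04 and 5.69 in WT livers. The groups overlapped throughout, and NEMOΔhepa spread over more than either other group. Gpc3 was also dim, with a mean below every array median in each genotype. Against WT the difference was 0.24 ± 0.24 in NEMOΔhepa (adjusted p = 0.626) and 0.06 ± 0.24 in NEMOΔhepa_p21_KO (adjusted p = 0.938). The direction changed when single arrays were left out, and the NEMOΔhepa difference was -0.02 without NEMOΔhepa replicate 3. For NEMOΔhepa_p21_KO it was -0.02 without its replicate 3, -0.05 without WT replicate 1 and -0.004 with arrays centred.

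Between the knockouts, where p21 status is the labelled difference, none of the 7 genes was called, and 0.197% of all probe sets were called in either direction, 0.0864% higher and 0.111% lower in NEMOΔhepa_p21_KO. Igf2 came nearest, at 0.49 ± 0.12 higher in NEMOΔhepa_p21_KO than in NEMOΔhepa, with a 95% interval of 0.21 to 0.76. Its unadjusted p was 0.003 and its adjusted p by limma 0.257, and over all 19 alternative settings the adjusted p ran from 0.168 to 0.675. Igf2 was the 1 gene of 7 with an unadjusted p under 0.05, a rule met by 7.46% of all probe sets, and the 1 gene whose NEMOΔhepa_p21_KO arrays lay wholly above the NEMOΔhepa arrays, as 4.99% of probe sets did. None lay wholly below, as 5.75% of probe sets did. For the 4 genes that rose against WT, the intervals of the difference between knockouts were wide. Golm1 differed by 0.10 (95% interval -0.31 to 0.52, adjusted p = 0.952) and Scd2 by 0.17 (-0.69 to 1.02, adjusted p = 0.967). Akr1c18 differed by 0.49 (-0.52 to 1.495, adjusted p = 0.876) and Sprr1a by -0.44 (-1.62 to 0.75, adjusted p = 0.913). Afp differed by -0.05 (adjusted p = 0.973) and Gpc3 by -0.18 (adjusted p = 0.922). A p that misses the threshold does not show that the knockouts were alike in these genes.

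The near relatives of Scd2, Akr1c18, Sprr1a and Gpc3 gave different readings. Relatives were taken by symbol, and those outside the fixed lists were chosen after their values were seen. Of 3 other Scd genes none was called by limma against WT in either knockout, and 0 had an unadjusted p under 0.05 (lowest adjusted p = 0.798 in NEMOΔhepa_p21_KO and 0.548 in NEMOΔhepa). Scd1, the main adult liver form, had 0.09 in NEMOΔhepa (95% interval -0.07 to 0.26) and 0.03 in NEMOΔhepa_p21_KO (-0.14 to 0.20). Its WT mean was 13.4, near the 13.75 of Alb, and a rise could be compressed at such a bright level. Scd3 and Scd4, the neighbours of Scd2 on chromosome 19, averaged 5.53 ± 0.05 and 5.12 ± 0.14 in NEMOΔhepa against 5.52 ± 0.02 and 5.13 ± 0.04 in WT (SD, n = 3 each). Both were dim, below every array median (6.47 to 6.58), so a small change in them could go unseen.

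Among 7 other Akr1c genes none rose against WT. In NEMOΔhepa 2 fell, Akr1c13 by 0.47 (adjusted p = 0.00764) and Akr1c12 by 0.43 (adjusted p = 0.0294). In NEMOΔhepa_p21_KO 3 fell, Akr1c13 by 0.41, Akr1c12 by 0.38 and Akr1c6 by 0.26. Akr1c18 lies between Akr1c14 and Akr1c13 on chromosome 13, and Akr1c14 had -0.38 in both comparisons without passing the test (adjusted p = 0.0962 in NEMOΔhepa and 0.0949 in NEMOΔhepa_p21_KO). The Akr1c6 call ended without any 1 of the NEMOΔhepa_p21_KO arrays or WT replicate 1 or 3 (adjusted p up to 0.108). The Akr1c12 calls ended without any 1 of the NEMOΔhepa arrays, WT replicate 1 or 3 or, for NEMOΔhepa_p21_KO, its replicate 1 or 3 (adjusted p up to 0.106 in NEMOΔhepa and 0.158 in NEMOΔhepa_p21_KO). The Akr1c13 call in NEMOΔhepa_p21_KO ended without its replicate 3 or WT replicate 1 or 3 (adjusted p up to 0.0616). These genes are close in sequence, and how far probes read more than 1 of them was not analysed here.

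Among 12 other Sprr genes none was called by limma in either knockout, and 0 in NEMOΔhepa_p21_KO and 1 in NEMOΔhepa had an unadjusted p under 0.05. Sprr1b, the closest relative by name, had 0.41 ± 0.11 in NEMOΔhepa at an adjusted p of 0.05001, just outside the threshold, which it passed in 6 of the alternative settings, and 0.19 ± 0.11 in NEMOΔhepa_p21_KO (adjusted p = 0.388). Sprr3 and Sprr4, the neighbours of Sprr1a on chromosome 3, had -0.04 and -0.08 in NEMOΔhepa. Sprr1b, Sprr3 and Sprr4 were dim, with WT means of 5.12, 5.03 and 5.64, below every array median. Sprr2a1, Sprr2a2 and Sprr2a3 were not measured. Of 5 other glypicans, Gpc1 and Gpc6 rose in both knockouts, and their values follow with the heparan sulfate genes. Gpc4, the neighbour of Gpc3 on the X chromosome, fell by 0.31 in NEMOΔhepa, a call that ended without NEMOΔhepa_p21_KO replicate 3, NEMOΔhepa replicate 1 or 3 or WT replicate 1 or 3 (adjusted p up to 0.104), and had -0.23 in NEMOΔhepa_p21_KO (adjusted p = 0.0796, passing in 4 alternative settings).

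**Figure D3:**
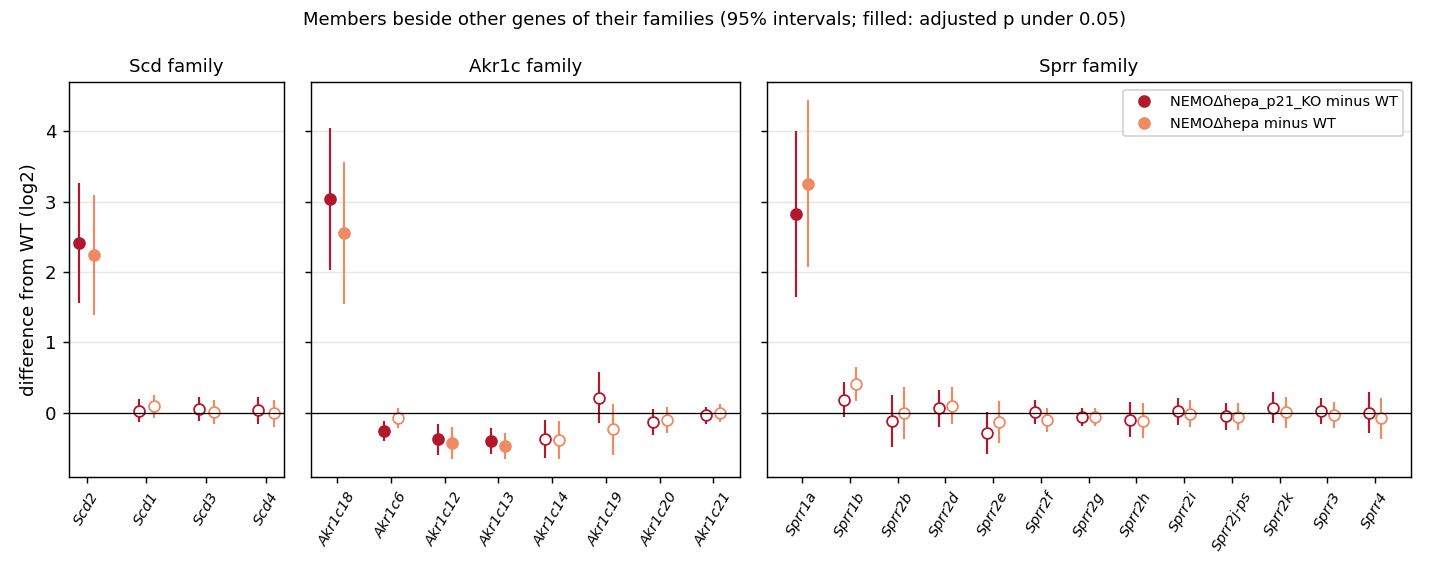
Difference in log2 signal from WT for Scd2, Akr1c18 and Sprr1a (first in each panel) and the other measured genes of each family, with circles for NEMOΔhepa_p21_KO and NEMOΔhepa, filled where the adjusted p was under 0.05, and lines for 95% intervals. The 3 genes lie above 2, while their relatives lie between -0.47 and 0.41.

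Genes of the pathways around these markers were described from 11 lists holding 191 measured genes. In NEMOΔhepa against WT 39 of the 191 were called, 30 higher and 9 lower, beside 7.68% of all probe sets. In NEMOΔhepa_p21_KO against WT 36 of the 191 were called, 24 higher and 12 lower, beside 9.32%. Between the knockouts none of the 191 was called, and 22 (11.5%) had an unadjusted p under 0.05, beside 7.46% of all probe sets. The lowest adjusted p among them was 0.126.

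**Figure D4:**
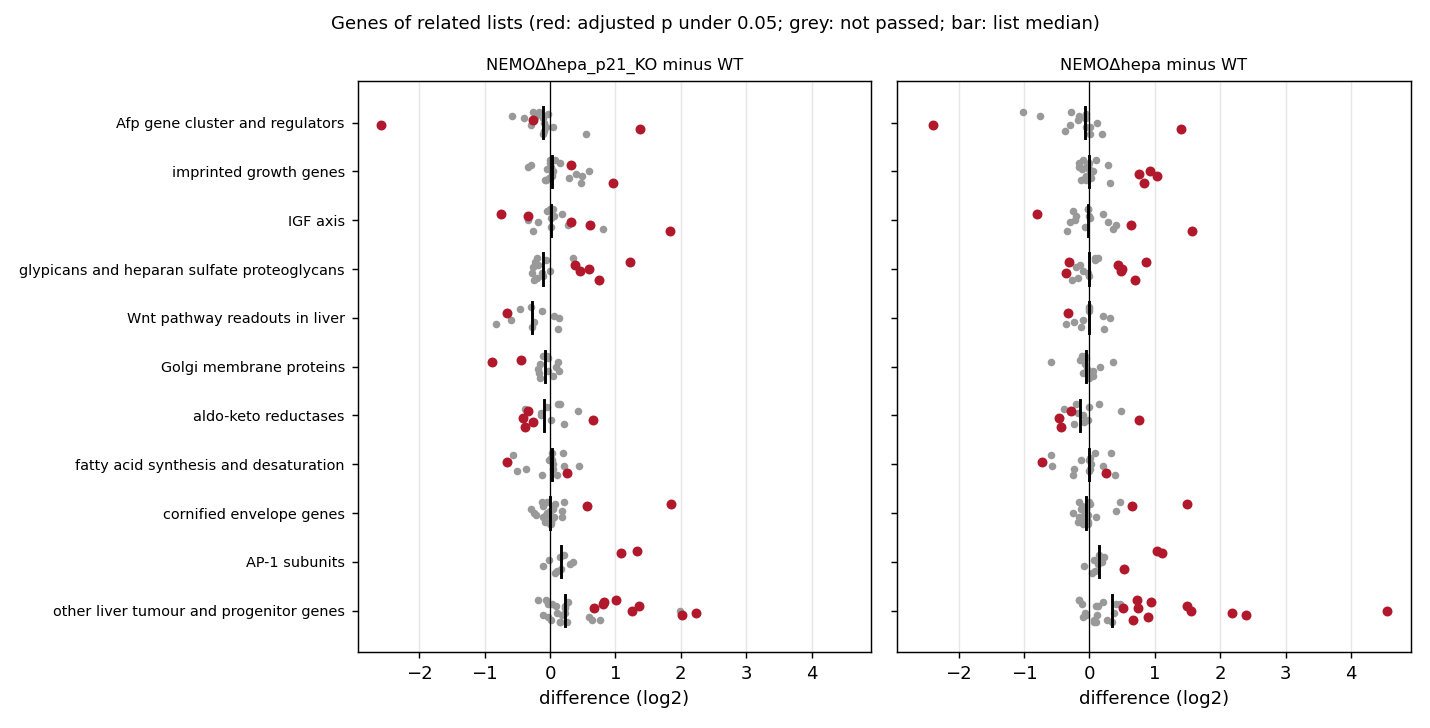
Difference in log2 signal from WT (horizontal axes) of each measured gene on the 11 lists, in NEMOΔhepa_p21_KO and in NEMOΔhepa, red where the adjusted p was under 0.05 and grey elsewhere, with a black bar at the list median. The list of other liver tumour and progenitor genes, the longest, holds the most red points, 8 of 29 in NEMOΔhepa_p21_KO and 11 of 29 in NEMOΔhepa, all to the right of 0. Most shorter lists hold smaller shares, and a few hold larger ones. In NEMOΔhepa the glypican list has 5 higher and 2 lower of 17. In NEMOΔhepa_p21_KO the aldo-keto reductases have 1 higher and 4 lower of 14. Over the alternatives the called count ran from 3 to 8 for the glypican list in NEMOΔhepa. For the aldo-keto reductases in NEMOΔhepa_p21_KO it ran from 1 to 6.

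A list of 17 measured genes held neighbours and regulators of Afp together with the lipid genes Elovl3 and Lpl. On it 1 rose and 1 fell in NEMOΔhepa, and 1 rose and 2 fell in NEMOΔhepa_p21_KO. Lpl and Elovl3 were the genes called in NEMOΔhepa, so no neighbour or regulator of Afp on the list was called there. The fatty acid elongase Elovl3 fell by 2.39 in NEMOΔhepa (adjusted p = 0.00597) and by 2.58 in NEMOΔhepa_p21_KO (adjusted p = 0.00348). Lipoprotein lipase, Lpl, rose by 1.40 in NEMOΔhepa and 1.37 in NEMOΔhepa_p21_KO, and the NEMOΔhepa call ended without NEMOΔhepa replicate 3 (adjusted p = 0.0632). Lpl is, like Afp and H19, a target of the repressor Zhx2 in mouse liver. Whether Zhx2 had a part in the Lpl difference was not tested. Zhx2 itself read 8.47, 8.45 and 8.60 in NEMOΔhepa_p21_KO livers, 8.36, 8.48 and 8.63 in NEMOΔhepa livers and 8.70, 9.02 and 8.65 in WT livers. Both knockouts lay below WT on every array, by -0.29 ± 0.11 in NEMOΔhepa_p21_KO (adjusted p = 0.165) and -0.30 ± 0.11 in NEMOΔhepa (adjusted p = 0.153), and neither passed the test. Zbtb20, another repressor of Afp, had an adjusted p of 0.834 in NEMOΔhepa_p21_KO and 0.811 in NEMOΔhepa. The nuclear receptor gene Nr5a2 fell by 0.26 in NEMOΔhepa_p21_KO, a call that ended without its replicate 1 or 3 or WT replicate 1 or 3 (adjusted p up to 0.105). The chromosomal neighbours of Afp, Alb and Afm, did not pass, with 0.05 and -0.26 in NEMOΔhepa_p21_KO and 0.01 and -0.28 in NEMOΔhepa. The median over the list was -0.11 in NEMOΔhepa_p21_KO and -0.07 in NEMOΔhepa, beside -0.03 and -0.04 over all probe sets.

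Of 22 other imprinted growth genes, 4 rose and none fell in NEMOΔhepa, and 2 rose and none fell in NEMOΔhepa_p21_KO. Phlda2, a growth-restraining gene of the same chromosome region as Igf2, rose by 0.83 in NEMOΔhepa (adjusted p = 0.0069) and 0.96 in NEMOΔhepa_p21_KO (adjusted p = 0.00296). In NEMOΔhepa the retrotransposon-derived Peg10 rose by 1.04, its neighbour Sgce by 0.93 and the zinc finger gene Plagl1 by 0.75. The Peg10 call ended without NEMOΔhepa replicate 2 or 3 or any WT array (adjusted p up to 0.0825), and the Plagl1 call without NEMOΔhepa replicate 3 or WT replicate 1 or 3 (up to 0.0646). Igf2r, the receptor that clears Igf2, rose by 0.32 in NEMOΔhepa_p21_KO, a call that ended without its replicate 2 or 3 or any WT array (up to 0.102). Dlk1 and Meg3, a fetal pair of another imprinted region, had -0.05 and -0.16 in NEMOΔhepa and 0.02 and 0.15 in NEMOΔhepa_p21_KO, and were named after their values were seen. The list medians were 0.03 in NEMOΔhepa_p21_KO and -0.001 in NEMOΔhepa.

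Of 17 genes of the insulin-like growth factor axis, 2 rose and 1 fell in NEMOΔhepa, and 3 rose and 2 fell in NEMOΔhepa_p21_KO. Igf2bp3, a fetal RNA-binding protein that binds Igf2 mRNA, rose by 1.57 in NEMOΔhepa and 1.83 in NEMOΔhepa_p21_KO (adjusted p = 0.017 and 0.00724). Its NEMOΔhepa call ended without NEMOΔhepa replicate 3 or WT replicate 1 or 3 (adjusted p up to 0.0715). Igfbp7, a secreted binding protein, rose by 0.63 in NEMOΔhepa and 0.62 in NEMOΔhepa_p21_KO. Igfals, the liver subunit that stabilises circulating growth factor complexes, fell by 0.81 in NEMOΔhepa and by 0.74 in NEMOΔhepa_p21_KO. The insulin receptor Insr fell by 0.34 in NEMOΔhepa_p21_KO. The Igfals call ended in NEMOΔhepa without NEMOΔhepa replicate 1 or 3 or WT replicate 1 or 3 (up to 0.103), and in NEMOΔhepa_p21_KO also without its replicate 2 or 3 (up to 0.121). The Insr call ended without any 1 array except WT replicate 2 (up to 0.149). It also ended with the replicate block, with cyclic loess, with only the groups compared fitted and with control-like probe sets kept. Igf1 had -0.02 in NEMOΔhepa and 0.05 in NEMOΔhepa_p21_KO (adjusted p = 0.883 and 0.727), and was named after its values were seen.

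Of 17 glypicans and other genes of heparan sulfate proteoglycans, 5 rose and 2 fell in NEMOΔhepa, and 5 rose and none fell in NEMOΔhepa_p21_KO. Sulf2, a sulfatase that trims heparan sulfate at the cell surface, rose by 0.87 in NEMOΔhepa (adjusted p = 0.000885) and by 1.22 in NEMOΔhepa_p21_KO (adjusted p = 0.000175). Sulf1, the related sulfatase, rose by 0.48 in NEMOΔhepa and 0.46 in NEMOΔhepa_p21_KO. Gpc1 rose by 0.70 in NEMOΔhepa and 0.75 in NEMOΔhepa_p21_KO, and Gpc6 by 0.50 in NEMOΔhepa and 0.60 in NEMOΔhepa_p21_KO. The fifth gene was the syndecan Sdc3, which rose by 0.43 in NEMOΔhepa and 0.38 in NEMOΔhepa_p21_KO, and the genes that fell were Gpc4 and the syndecan Sdc2, the second by 0.36. Of the genes named here, the Sulf2 calls and the Sdc3 call in NEMOΔhepa held without any 1 array. The Gpc1 calls ended without NEMOΔhepa replicate 2 or WT replicate 2 or 3 in NEMOΔhepa (adjusted p up to 0.0812) and without WT replicate 3 in NEMOΔhepa_p21_KO (0.0563). The Gpc6 calls ended without NEMOΔhepa_p21_KO replicate 3, NEMOΔhepa replicate 2 or 3 or any WT array in NEMOΔhepa (up to 0.114) and without WT replicate 1 or 3 in NEMOΔhepa_p21_KO (up to 0.0541). The Sdc2 call ended without NEMOΔhepa replicate 2 or 3 or WT replicate 1 or 3 (up to 0.0666), and the Sdc3 call in NEMOΔhepa_p21_KO without its replicate 3 or WT replicate 1 (up to 0.0555). The Sulf1 calls ended without replicate 2 or 3 of the knockout compared or WT replicate 1 or 2 (up to 0.0941 in NEMOΔhepa and 0.0944 in NEMOΔhepa_p21_KO).

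Of 11 Wnt pathway readouts of liver, some of them markers of the pericentral zone, 1 fell and none rose in each knockout. Glul, glutamine synthetase, fell by 0.33 in NEMOΔhepa and by 0.66 in NEMOΔhepa_p21_KO (adjusted p = 0.0174 and 0.000493). The NEMOΔhepa call ended without NEMOΔhepa replicate 2 or 3 or WT replicate 1 or 3 (up to 0.068). Tbx3, a transcription factor of the Wnt response, had -0.36 in NEMOΔhepa and -0.83 in NEMOΔhepa_p21_KO without passing (adjusted p = 0.454 and 0.0642). In NEMOΔhepa_p21_KO it passed as lower in 6 of 18 alternative settings, including those without NEMOΔhepa replicate 2 or 3 (adjusted p = 0.00932 and 0.0427), and in NEMOΔhepa without NEMOΔhepa replicate 2 (0.0482). The count of called genes on this list ran from 1 to 3 in NEMOΔhepa_p21_KO and from 0 to 3 in NEMOΔhepa over the alternatives. The list median was -0.01 in NEMOΔhepa and -0.28 in NEMOΔhepa_p21_KO.

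Golm1 was set beside other Golgi genes. Of 14 measured, none rose or fell in NEMOΔhepa (limma), where 2 had an unadjusted p under 0.05, and 2 fell in NEMOΔhepa_p21_KO. St6gal1, a sialyltransferase, fell by 0.89 and Golgb1, a tether of Golgi membranes, by 0.44 in NEMOΔhepa_p21_KO (adjusted p = 0.014 and 0.0122). Both calls ended without NEMOΔhepa_p21_KO replicate 3 or WT replicate 1 (up to 0.0596 and 0.0513). In NEMOΔhepa, St6gal1 had -0.59 (adjusted p = 0.0873) and the Golgi glycoprotein gene Glg1 had 0.36 (adjusted p = 0.0515). Glg1 passed as higher in 9 of 18 alternative settings (adjusted p from 0.014 to 0.169 over all 18), among them those without NEMOΔhepa_p21_KO replicate 1 or 2 or NEMOΔhepa replicate 1 (0.0308, 0.0476 and 0.0325). St6gal1 passed as lower in 2 of 18, those with only NEMOΔhepa and WT fitted (0.0471) and without NEMOΔhepa_p21_KO replicate 2 (0.0303). The count of called Golgi genes in NEMOΔhepa therefore ran from 0 to 2.

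Of 14 other aldo-keto reductases, 1 rose and 3 fell in NEMOΔhepa, and 1 rose and 4 fell in NEMOΔhepa_p21_KO. Akr1b10, the mouse gene sharing its symbol with a human liver tumour marker, rose by 0.76 in NEMOΔhepa (adjusted p = 0.0021) and 0.65 in NEMOΔhepa_p21_KO (adjusted p = 0.00383). Akr7a5, an aldehyde reductase, fell by 0.29 in NEMOΔhepa and by 0.33 in NEMOΔhepa_p21_KO. Its NEMOΔhepa call ended without any 1 of the 9 arrays (adjusted p up to 0.127), and its NEMOΔhepa_p21_KO call without its replicate 3 or WT replicate 2 (up to 0.0765).

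Of 16 genes of fatty acid synthesis and desaturation, 1 rose and 1 fell in each knockout. Mlxipl, which encodes the carbohydrate-response factor of lipogenesis, fell by 0.73 in NEMOΔhepa and by 0.65 in NEMOΔhepa_p21_KO (adjusted p = 0.00132 and 0.002). The desaturase gene Fads2 rose by 0.25 in each. Its calls ended without any 1 array except NEMOΔhepa_p21_KO replicate 2 in NEMOΔhepa (up to 0.115), and without NEMOΔhepa_p21_KO replicate 1 or 3 or WT replicate 1 or 2 in NEMOΔhepa_p21_KO (up to 0.124), and both ended with arrays centred.

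Of 24 cornified envelope genes other than Sprr1a, 2 rose and none fell in each knockout. Periplakin, Ppl, which links the envelope to filaments, rose by 1.498 in NEMOΔhepa (adjusted p = 0.00093) and 1.84 in NEMOΔhepa_p21_KO (adjusted p = 0.000294). The keratin gene Krt23 rose by 0.66 in NEMOΔhepa and 0.57 in NEMOΔhepa_p21_KO, the second call ending without WT replicate 2 (0.0518). Of 11 AP-1 subunits, the factors whose motif is marked in the Sprr1a window, 3 rose in NEMOΔhepa and 2 in NEMOΔhepa_p21_KO, and none fell. Whether they act on Sprr1a was not tested. Atf3 rose by 1.03 in NEMOΔhepa and 1.34 in NEMOΔhepa_p21_KO (adjusted p = 0.00533 and 0.00126). Jun rose by 1.11 in NEMOΔhepa and 1.08 in NEMOΔhepa_p21_KO, and Junb by 0.53 in NEMOΔhepa. The Jun calls ended without NEMOΔhepa replicate 2 or 3, or NEMOΔhepa_p21_KO replicate 1 or 3 in its own comparison, or WT replicate 1 or 3 (up to 0.0655 in NEMOΔhepa and 0.0669 in NEMOΔhepa_p21_KO). The Junb call ended without any 1 array except WT replicate 1 (up to 0.163).

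Of 29 other liver tumour and progenitor genes, 11 rose in NEMOΔhepa and 8 in NEMOΔhepa_p21_KO, and none fell. Over the alternatives the count of called genes on this list ran from 6 to 11 in NEMOΔhepa. In NEMOΔhepa_p21_KO it ran from 5 to 10. The 11 reported in NEMOΔhepa was thus the highest count of any setting. Ly6d, a surface protein gene, read 7.35, 10.27 and 7.62 in NEMOΔhepa_p21_KO livers, 10.79, 11.15 and 10.999 in NEMOΔhepa livers and 6.24, 6.98 and 6.07 in WT livers. The NEMOΔhepa arrays were all high and close together, and NEMOΔhepa_p21_KO replicate 2 lay well above its group's other two. Ly6d rose by 4.55 ± 0.64 in NEMOΔhepa (adjusted p = 0.00272), and had 1.98 in NEMOΔhepa_p21_KO (adjusted p = 0.0998). The second difference passed with the replicate block (0.0405) and, at 1.05, without NEMOΔhepa_p21_KO replicate 2 (0.0401). Between the knockouts it had -2.57 (adjusted p = 0.254), which became -3.50 with adjusted p = 0.00457 without NEMOΔhepa_p21_KO replicate 2. The membrane-binding annexin Anxa2 rose by 2.40 in NEMOΔhepa and 2.03 in NEMOΔhepa_p21_KO, and lipocalin 2, Lcn2, a siderophore-binding protein of injured epithelia, rose by 2.19 in NEMOΔhepa and 2.24 in NEMOΔhepa_p21_KO. Cd24a, a surface marker of progenitor cells, rose by 1.56 in NEMOΔhepa and 1.26 in NEMOΔhepa_p21_KO, the second call ending without NEMOΔhepa_p21_KO replicate 3 or any WT array (up to 0.0738). Anxa5 rose by 1.36 in NEMOΔhepa_p21_KO (adjusted p = 8.46e-05).

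The genes whose pattern over the 9 arrays was most like that of each risen gene were found by the root mean square difference after each was centred on its own mean, over 17086 genes. For Golm1 these were Tagln2, an actin-binding protein gene, at 0.11 and Mtmr11, a myotubularin-related gene, at 0.138, where the spread of Golm1 itself was 0.839. For Akr1c18 the nearest was Scd2, at 0.455, ahead of Lum, a collagen-binding proteoglycan gene, at 0.572, against a spread of 1.45. For Scd2 they were Gldn, at 0.364, and Sparcl1, at 0.4, against 1.195. For Sprr1a they were Mmp12, a macrophage elastase, at 0.534 and Cyp2a22, a cytochrome P450 gene, at 0.588, against 1.59. Each of these genes was called higher in both knockouts against WT. Akr1c18 and Scd2 placed the arrays in the same order within each knockout, with replicate 1 lowest and 3 highest in NEMOΔhepa_p21_KO, and replicate 2 lowest and 3 highest in NEMOΔhepa. For each risen gene the measure rests more on the difference between genotypes than on mice within a genotype.

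Markers of other cell types moved with the 4 risen genes, and their part in the result was not tested. Of 10 macrophage markers 9 rose in each knockout, and the mean log2 signal over the list was 8.86 to 9.00 in NEMOΔhepa_p21_KO, 8.86 to 9.00 in NEMOΔhepa and 7.70 to 7.82 in WT. Of 10 stellate cell and fibroblast markers 8 rose in each, with 9.45 to 9.57 in NEMOΔhepa_p21_KO, 9.42 to 9.69 in NEMOΔhepa and 8.31 to 8.43 in WT. All 5 measured proliferation markers rose in each, with 8.95 to 9.16 in NEMOΔhepa_p21_KO, 7.97 to 8.54 in NEMOΔhepa and 6.02 to 7.23 in WT. Of 9 measured cholangiocyte markers 3 rose in NEMOΔhepa_p21_KO and 4 in NEMOΔhepa, with means of 6.33 to 6.80 in NEMOΔhepa_p21_KO, 6.45 to 6.75 in NEMOΔhepa and 5.96 to 6.12 in WT. Some of these markers, Epcam among them, also stand in the tumour and progenitor list. Of 6 measured lymphocyte markers none rose in NEMOΔhepa_p21_KO and 2 in NEMOΔhepa, and of 4 adipocyte markers 1, Cidec, rose in each. Of 6 endothelial markers none was called by limma (2 at an unadjusted p under 0.05 in NEMOΔhepa_p21_KO and 0 in NEMOΔhepa), and of 4 exocrine pancreas markers none (0 in NEMOΔhepa_p21_KO and 1 in NEMOΔhepa). The hepatocyte markers were at 12.87 to 13.11 in NEMOΔhepa_p21_KO, 12.95 to 13.07 in NEMOΔhepa and 12.98 to 13.16 in WT, so the labelled tissue's own markers were bright on every array, and 1 of 9 (Hal) fell in each knockout. No marker was called by limma between the knockouts. At an unadjusted p under 0.05, which 7.46% of all probe sets met, were 4 of 5 proliferation markers, with a list median of 0.93 higher in NEMOΔhepa_p21_KO, and 3 of 6 lymphocyte markers, with a list median of -0.29. So were 2 of 10 macrophage, 1 of 10 stellate cell and fibroblast, 1 of 9 hepatocyte and 1 of 6 endothelial markers. None of the cholangiocyte, exocrine pancreas or adipocyte markers was. Array signal has no true zero, so no marker can be given as absent.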

How the data were processed

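Liver RNA from 9 mice, 3 per genotype, was measured on Affymetrix arrays, 1 array per mouse. The authors deposited RMA values on a log2 scale, with the method named per the submitters' processing notes; the log2 base was read from the range of the deposited values, with array medians of 6.47 to 6.58. Control-like probe sets, 6617 of 35556 (18.6%), were left out. Of the 28939 probe sets tested, 21789 carried 1 gene symbol in the platform annotation, 1621 several and 5529 none, and a gene was named from its brightest single-symbol probe set.

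Genotypes were compared in a linear model with 1 mean per group over all 9 arrays and a moderated variance (limma version 3.58.1, under R version 4.3.3). Adjusted p is Benjamini-Hochberg over all 28939 probe sets, and a probe set was called at adjusted p under 0.05. Differences are on the log2 scale with SE, and folds are their antilogs. In a test on simulated data for NEMOΔhepa against WT, 66 of 66 probe sets changed by 2, 64 of 67 changed by 1 and 40 of 67 changed by 0.5 were recovered, with 11 false calls among 28939. The simulation drew independent normal noise, gave each probe set the same spread in all groups and changed 200 probe sets. Real groups differed in spread, as for Akr1c18, and far more probe sets were called. These recovery rates may therefore not carry over to the arrays. The number of arrays limits the precision. The labels number the mice but do not say whether they share litters.

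The genes, lists and tests were chosen with earlier results of these data known. From each list up to 4 called genes with the largest difference were named and, where under 2 were called, the 2 with the largest difference; others are said to be chosen after their values were seen. Alternatives were a replicate block, quantile, median and cyclic loess normalization, a filter on dim probe sets, a trended robust prior, array weights, the mean of a gene's probe sets, 2-group fits, control probe sets kept, and each array left out. Promoter and microRNA sequences came from RefSeq tables (GRCm38.p6). Scd2 and H19 had no entry among the windows used here. No gene coordinates are given for probe sets, since the build behind them is not given in the sources used here.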

Additional observations from a re-analysis of the deposited data

How the results depend on the processing

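Of the 7 measured genes, 4 were called higher in each knockout against WT and 0 between the knockouts under all 10 alternatives and all 9 fits that left out 1 array. Golm1, Akr1c18, Scd2 and Sprr1a each kept both calls throughout, with the highest adjusted p at 0.0412, for Sprr1a in NEMOΔhepa_p21_KO against WT. The labels give each group replicate numbers 1 to 3, and the deviations of arrays with the same number were correlated. For NEMOΔhepa_p21_KO and NEMOΔhepa the correlations were all above 0, at 0.39, 0.083 and 0.25. They were also above 0 for NEMOΔhepa and WT, at 0.18, 0.0057 and 0.021. For NEMOΔhepa_p21_KO and WT they were 0.095, -0.12 and -0.036. A fit with the number as a block changed none of the calls of the 7 genes. It gave 2775 probe sets called in NEMOΔhepa_p21_KO against WT, beside 2696 without the block, and 2318 in NEMOΔhepa against WT, beside 2222. Over all probe sets, leaving out 1 array gave 1601 to 2720 calls in NEMOΔhepa_p21_KO against WT (lowest without NEMOΔhepa_p21_KO replicate 3) and 1382 to 2335 in NEMOΔhepa against WT (lowest without NEMOΔhepa replicate 3). Centring the arrays moved the split to 1309 higher and 1661 lower in NEMOΔhepa_p21_KO, beside 1680 and 1016, and to 1304 higher and 1169 lower in NEMOΔhepa, beside 1638 and 584. Between the knockouts, 57 calls became 18 with the replicate block, 31 with arrays centred, 23 with only those groups fitted, 28 with control-like probe sets kept and 10 to 44 with 1 array left out. Among the listed genes, 1 was called between the knockouts in each of 2 settings, Ly6d at -3.50 without NEMOΔhepa_p21_KO replicate 2 and 1 gene of the Wnt list with the trended robust prior. With 1 array left out, the differences between the knockouts ran from -0.19 to 0.044 for Afp (above 0 without NEMOΔhepa_p21_KO replicate 1 or, at 0.012, NEMOΔhepa replicate 1), from -1.12 to 0.10 for Sprr1a (above 0 without NEMOΔhepa_p21_KO replicate 1), from -0.18 to 0.57 for Scd2 (below 0 without NEMOΔhepa_p21_KO replicate 3 or, at -0.055, NEMOΔhepa replicate 2), from -0.038 to 0.22 for Golm1 (below 0 without NEMOΔhepa replicate 1), from -0.12 to 0.89 for Akr1c18 (below 0 without NEMOΔhepa replicate 2) and from -0.44 to 0.076 for Gpc3 (above 0 without NEMOΔhepa replicate 3). Against WT, Gpc3 ran from -0.054 to 0.21 in NEMOΔhepa_p21_KO (below 0 without its replicate 3, at -0.020, or WT replicate 1, and -0.0036 with arrays centred) and from -0.015 to 0.504 in NEMOΔhepa (below 0 without NEMOΔhepa replicate 3). The Mir675 and Supt6 probe set ran from -0.17 to 0.20 in NEMOΔhepa (below 0 without NEMOΔhepa replicate 1, -0.014 with arrays centred and -0.094 with array weights). The cause was not tested, beyond the loss of an array. The 11 pathway lists gave 594 counts over the alternatives, of which 481 stayed within 1.5 times the count reported and 113 did not. The lost calls given with the lists are mostly those from a left-out array. Other settings also ended calls, as cyclic loess did for Nr5a2, Igfals and Insr in NEMOΔhepa_p21_KO. Of the list calls named by size against WT, 15 of 29 in NEMOΔhepa and 14 of 30 in NEMOΔhepa_p21_KO held in every setting. Afp and Gpc3 were too dim for the filter on dim probe sets, so that filter gives no value for them, and the mean of a gene's probe sets equals the brightest because each gene has 1.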

Other observations

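Within each genotype, the array with the highest Afp value was also the highest for Igf2 and for the probe set shared by Mir675 and Supt6. This was replicate 2 in NEMOΔhepa_p21_KO, replicate 1 in NEMOΔhepa and replicate 1 in WT. The order was noticed in these data, describes 9 arrays and was not tested. WT replicate 1 was the highest of its group for 5 of the 7 measured genes, so its place is not particular to these probe sets. NEMOΔhepa replicate 1 was the highest for 2 of the 7 and NEMOΔhepa_p21_KO replicate 2 for 3. NEMOΔhepa replicate 1 also had the highest array median of its group (6.58), while NEMOΔhepa_p21_KO replicate 2 had the lowest of its own (6.53). Replicate 2 of NEMOΔhepa_p21_KO was also the highest of its group for Sprr1a (10.68) and Ly6d (10.27), where the other two arrays of its group were at 8.24 and 9.04 for Sprr1a and at 7.35 and 7.62 for Ly6d. NEMOΔhepa_p21_KO replicate 1 was the lowest array of its group for 6 of the 7 measured genes.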
